A study of Mus musculus with 12 samples.

Results

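The genes described here are Spop and 5 genes of the cullin 3 ubiquitin ligase in which its protein works: Spopl, Cul3, Rbx1, Nedd8 and Cand1. They were chosen by name, and all 6 were found among the 43243 gene names of the files and among the 13600 genes tested. RNA was sequenced from mouse prostate organoids, which are cultures of digested prostate tissue in Matrigel, with 6 libraries labelled SPOPmut and 6 labelled SPOPwt, and a number from S0 to S5 tied each SPOPmut library to an SPOPwt library. By the labels' protocols, the SPOPmut cells came from an inducible model in which Cre fused to an oestrogen receptor domain (CreERT2) was activated with 4-hydroxytamoxifen, and GFP-positive cells were sorted. The SPOPwt controls were sham-sorted, so the mutation and the GFP selection cannot be told apart, and whether they received tamoxifen is not stated. CreERT2 was delivered by virus with puromycin selection in line A or came from a TMPRSS2-CreERT2 transgene in line B. Read as the models A and B of the sequencing protocol, these gave 5 pairs and 1 pair, and no library is labelled with its model. The protocols name a F133V allele of SPOP (R26F133V) for another, Probasin-driven Cre line, and do not state the allele or the animals' ages for the sequenced pairs. Separate animals or cultures are not stated for the 5 pairs of model A, whose spread, and with it each p-value, may therefore be technical.

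Cullin 3 ligases attach ubiquitin to chosen proteins. The scaffold CUL3 holds a BTB-domain adaptor at one end, which binds the substrate, and the RING protein RBX1 at the other, which recruits the ubiquitin-carrying enzyme. SPOP is such an adaptor, its MATH domain binds the substrate, and mutations of that domain recur in human prostate cancer. The ubiquitin-like protein NEDD8 is attached to the cullin and activates the ligase, the COP9 signalosome removes it, and CAND1 binds cullins without NEDD8 and helps to exchange their adaptors.

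Estimated depth was 28270000 to 40980000 reads per library, and 13012 to 13885 genes stood at 1 RPKM (reads per kilobase of gene model, scaled to depth) or more. The tissue label was checked against 6 basal and 6 pan-epithelial markers. Their summed levels were 2185 to 3118 and 924 to 1129 RPKM in pair S5, against 0.931 to 8.32 and 0.289 to 7.09 RPKM in pairs S0 to S4. Outside S5, Krt5, the basal keratin, did not exceed 0.241 RPKM and Epcam, an epithelial adhesion protein, 1.28 RPKM. Not all epithelial markers were near 0 there: the keratins Krt18, Krt8 and Krt15 reached 89.6, 21.5 and 8.15 RPKM, the junction gene Cldn4 3.64 RPKM and the basal factor Trp63 2.28 RPKM. The summed level of 7 fibroblast and mesenchymal markers was 0.385 to 0.574 RPKM in S5, against 1203 to 2174 RPKM in S0 to S4. For 6 luminal markers it was 1051 to 1183 RPKM in S5, against 57.3 to 181 RPKM in S0 to S4. For 4 smooth muscle markers it was 0.742 to 2.35 RPKM in S5, against 108 to 761 RPKM in S0 to S4, nearly all of it Acta2 (107 to 758 RPKM in S0 to S4). The other 3, Myh11, Des and Cnn1, did not exceed 2.93 RPKM in any library. For 6 proliferation genes it was 25.9 to 40.1 RPKM in S5, against 36.0 to 299 RPKM in S0 to S4. Markers of immune cells (sum of 6 up to 7.70 RPKM), endothelium (4, up to 1.84 RPKM) and neuroendocrine cells (4, up to 0.224 RPKM) were low in all 12 libraries.

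The 6 genes spanned a wide range of levels, with the same gene at the top and the same gene at the bottom in every library. Nedd8 had the highest level at 106 ± 26.3 RPKM, followed by Spop at 48.7 ± 4.69 RPKM and Rbx1 at 29.2 ± 2.86 RPKM (SD over 12 libraries). Cul3 stood at 24.8 ± 7.59 RPKM, Cand1 at 17.6 ± 3.39 RPKM and Spopl at 5.17 ± 0.419 RPKM. The ranges of Rbx1 (25.2 to 34.4 RPKM), Cul3 (15.01 to 37.1 RPKM) and Cand1 (12.6 to 21.9 RPKM) ran into each other along this order. Those of Nedd8, Spop and Spopl met no neighbour. RPKM is per length of the gene model the authors used, which is not given in the sources used here, so the order between genes depends on that model.

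Spop, Spopl and Rbx1 were among the steadiest transcripts of the data, and Cul3, Nedd8 and Cand1 were not. The coefficient of variation over the 12 libraries was 9.62% for Spop, 8.09% for Spopl and 9.77% for Rbx1, against a median of 27.7% over the 13600 genes tested. Only 3.56%, 1.70% and 3.84% of those genes had a lower one. Cul3 varied by 30.6%, Nedd8 by 24.9% and Cand1 by 19.3%, and 56.6%, 43.6% and 28.1% of genes varied less. From the lowest to the highest library, Spop changed 1.43-fold and Cul3 2.48-fold.

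**Figure D1:**
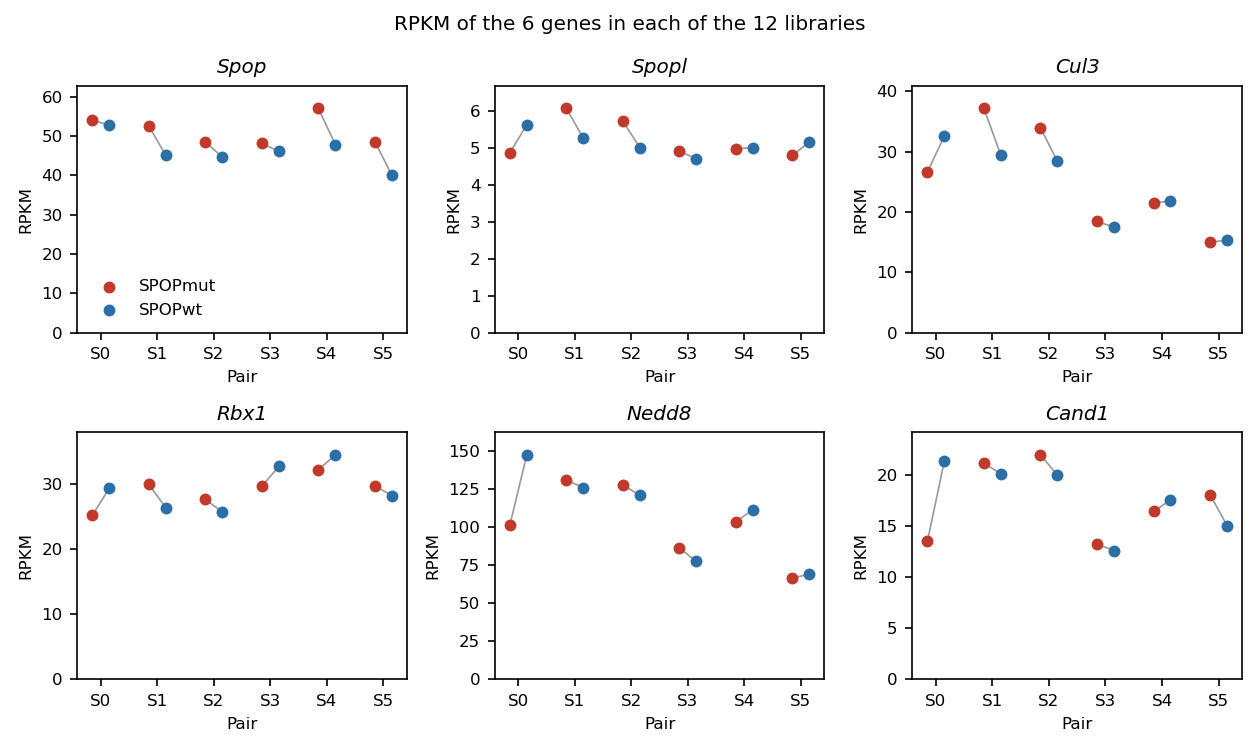
RPKM of each gene (vertical axis, from 0) in the SPOPmut and SPOPwt libraries of pairs S0 to S5 (horizontal axis), with a line joining the 2 libraries of a pair. Spop is higher in SPOPmut in each of the 6 pairs, while Cul3 and Nedd8 differ more between pairs than within them and are lowest in S5.

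The bases just upstream of Spop, a steady gene, and of Cul3, a variable one, are shown because these 2 partners contrast across the libraries. Each run is the 250 bases before the RefSeq start on GRCm38.p6, 5′ to 3′ on the gene's strand, and capitals mark the GC box GGGCGG or its reverse complement CCGCCC.
Spop, chr11:95413833-95414082, plus strand: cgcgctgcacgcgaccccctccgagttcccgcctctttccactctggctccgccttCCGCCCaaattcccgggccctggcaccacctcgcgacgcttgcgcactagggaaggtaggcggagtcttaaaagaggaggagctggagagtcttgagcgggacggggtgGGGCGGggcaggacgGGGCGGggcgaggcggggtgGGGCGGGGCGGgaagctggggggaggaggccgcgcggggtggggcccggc
Cul3, chr1:80340691-80340940, minus strand: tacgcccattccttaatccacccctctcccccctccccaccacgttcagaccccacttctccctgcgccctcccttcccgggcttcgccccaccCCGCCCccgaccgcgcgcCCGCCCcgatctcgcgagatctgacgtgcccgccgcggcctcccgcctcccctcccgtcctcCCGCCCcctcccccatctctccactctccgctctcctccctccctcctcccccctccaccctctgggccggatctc
Both runs were rich in G and C, at 73.6% in Spop and 73.2% in Cul3, against a median of 52.4% over 32851 RefSeq windows of the same length. Spop held 5 GC boxes, a pair of which overlap, and Cul3 held 3. Rbx1 had 4, Cand1 3 and Nedd8 0, and 32.7% of all windows held at least 1. The ETS core CCGGAAG, read on both strands, was found once in Nedd8 and in 6.91% of windows. Spopl has no entry in that table.

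Spop, the substrate adaptor, is encoded on the plus strand of chromosome 11, between bases 95414080 and 95493406 of GRCm38. It ran from 48.1 RPKM through a median of 50.5 to 57.0 RPKM in SPOPmut, against 40.0 through a median of 45.6 to 52.7 RPKM in SPOPwt. The groups overlapped: the SPOPwt library of S0, at 52.7 RPKM, stood above the SPOPmut libraries of S1, S2, S3 and S5. Within pairs SPOPmut was higher each time, by 0.035 (S0), 0.22 (S1), 0.12 (S2), 0.062 (S3), 0.25 (S4) and 0.27 (S5) on the log2(RPKM + 1) scale. A single higher direction in 6 of 6 pairs was seen in 3.62% of genes tested. The mean difference was 0.16 (SE 0.067, 95% interval 0.0049 to 0.31), or 1.12-fold, with a limma adjusted p of 0.886 over all genes. Flipping the signs of the pair differences in every way gave an exact two-sided p of 0.03125, the smallest that 6 pairs allow. That sign-flip test takes the 6 pairs as true and independent, which is not stated for them. Deviations of the S0 libraries correlated by only 0.0602, and the S1 and S2 libraries were the most alike in both groups. Spop was the 1 member of 6 whose limma p was under 0.05 before adjustment, as it was for 3.82% of all genes in the higher direction and 5.6% in either. After adjustment 0% of genes were called higher and 0% lower. Without pair S0, whose libraries deviated together least, the difference was 0.18, and Spop was not called. Without the pair as a block the unadjusted limma p of Spop was 0.122.

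The Spop difference of each pair was placed among the signed differences of all genes in that pair. It stood above 53.9% of genes in S0, 80.7% in S1, 72.2% in S2, 64.7% in S3, 92.4% in S4 and 86.6% in S5. A mutant SPOP expressed from an inserted allele could add reads that map to Spop, and reads of the native gene and of such an allele cannot be told apart in these values.

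Spopl, a close paralogue of Spop that also binds CUL3, lies on chromosome 2 at 23506220 to 23572106 (minus strand). It ran from 4.79 through a median of 4.94 to 6.06 RPKM in SPOPmut, against 4.70 through a median of 5.09 to 5.62 RPKM in SPOPwt. The groups overlapped almost wholly, and SPOPmut was higher in 3 of 6 pairs. The difference was 0.019 (SE 0.070, 95% interval -0.14 to 0.18, limma adjusted p = 0.963). Spop exceeded Spopl 7.74-fold to 11.5-fold in the 12 libraries. The pseudogene Gm13331 overlaps 448 exonic bases of Spopl on the opposite strand and was listed at 23.0 to 32.9 RPKM. The kit does not mark strand, so part of the Spopl value is uncertain.

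Among 46 CUL3 adaptors with a BTB domain that were listed by choice, Spop was the most abundant on average. Its rank and share depend on that list. It ranked first or second in every library and made up 10.7 to 14.4% of their summed RPKM. Kctd10, an adaptor of the KCTD family, followed at 42.1 ± 7.88 RPKM, and Kctd17 of the same family at 29.4 ± 11.05 RPKM (SD over 12 libraries). Keap1, the adaptor that targets the stress factor NRF2, stood lower at 12.5 ± 2.77 RPKM.

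**Figure D2:**
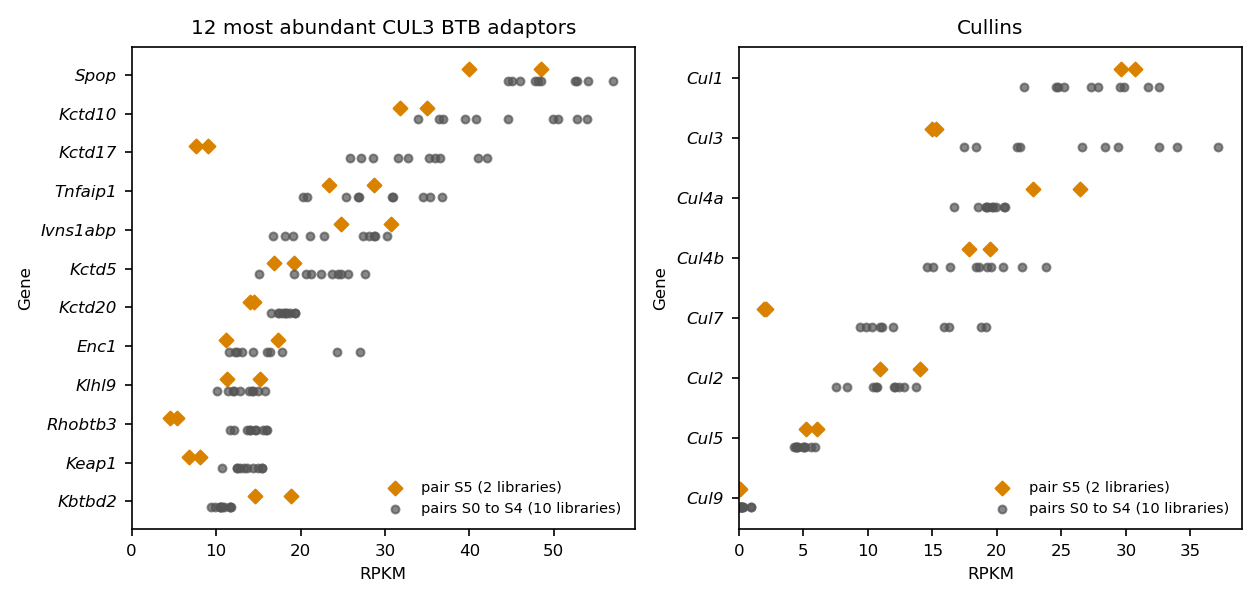
RPKM (horizontal axis, from 0) of the 12 most abundant BTB adaptors of CUL3 and of 8 cullins (vertical axis, by mean level), with a diamond for each of the 2 libraries of pair S5 and a dot for each of the 10 libraries of S0 to S4. Spop leads the listed adaptors by mean level, and Cul3 in S5 lies near 15 RPKM, below all other pairs.

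Cul3, the scaffold, lies on chromosome 1 at 80264923 to 80340480 (minus strand). It ran from 15.01 through a median of 24.1 to 37.1 RPKM in SPOPmut, against 15.3 through a median of 25.1 to 32.6 RPKM in SPOPwt. It was higher in SPOPmut in 3 of 6 pairs, by 0.33 in S1 and 0.25 in S2 but by 0.071 in S3, and the difference was -0.28 in S0, -0.015 in S4 and -0.025 in S5. The mean difference was 0.055 (SE 0.088, 95% interval -0.15 to 0.26, limma adjusted p = 0.922). It was -0.00036 without S1, 0.12 without S0, 0.16 without S0 and S5 and 0.17 with array weights, and Cul3 was called in none of these. The variation was between pairs: both libraries of S0, S1 and S2 stood at 26.6 RPKM or more, and both of S3, S4 and S5 at 21.8 RPKM or less.

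With Cul3, the order of the cullins changed between pairs. Cul1, the scaffold of SCF ligases, stood at 28.0 ± 3.25 RPKM (SD over 12 libraries). The ratio of Cul3 to Cul1 was 1.08 and 1.03 in S0, 1.14 and 0.995 in S1, and 1.14 and 1.02 in S2, for SPOPmut and SPOPwt in that order. In S3 it was 0.748 in SPOPmut and 0.791 in SPOPwt, in S4 0.853 and 0.796, and in S5 0.489 and 0.516. Cul3 thus ranked 1 or 2 among 8 cullins in S0, S1, S2 and S4 and 4 in S3 and S5.

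Rbx1, the RING subunit, lies on chromosome 15 at 81466296 to 81476369 (plus strand). It ran from 25.2 through a median of 29.7 to 32.2 RPKM in SPOPmut, against 25.7 through a median of 28.7 to 34.4 RPKM in SPOPwt. The groups overlapped, 3 of 6 pairs were higher in SPOPmut, and the difference was -0.015 (SE 0.074, 95% interval -0.18 to 0.15, limma adjusted p = 0.972). Its sign was positive without S0, where the difference was 0.024. The ratio of Cul3 to its RING partner ran from 0.505 to 1.24, above 1 in both libraries of S0, S1 and S2 and lowest in S3 and S5. Rnf7, the RING protein that serves cullin 5, averaged 23.2 RPKM (SD 2.87) over the SPOPmut libraries and 21.8 RPKM (SD 3.51) over the SPOPwt libraries. SPOPmut was higher in 6 of 6 pairs, as it was for 3.62% of all genes, by 0.094 (SE 0.059, limma adjusted p = 0.887).

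Nedd8, the cullin-activating modifier, lies on chromosome 14 at 55662263 to 55672124 (minus strand). It ran from 66.4 through a median of 102 to 131 RPKM in SPOPmut, against 69.0 through a median of 116 to 147 RPKM in SPOPwt. The SPOPmut library of pair S0 held 101 RPKM, against 147 RPKM in its SPOPwt partner, or -0.54 on the log2 scale. The other pairs lay between -0.11 and 0.15. The S0 difference of Nedd8 stood above those of 14.7% of all genes in that pair, whose quartiles were -0.35 and 0.31. The mean difference was -0.068 (SE 0.10, 95% interval -0.30 to 0.16, limma adjusted p = 0.915), and it was 0.026 without S0. Nedd8 shares 184 exonic bases with Gmpr2 on the opposite strand (8.69 to 21.9 RPKM), so a part of its reads is uncertain.

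Cand1, the adaptor exchange factor, lies on chromosome 10 at 119199255 to 119240055 (minus strand). It ran from 13.2 through a median of 17.2 to 21.9 RPKM in SPOPmut, against 12.6 through a median of 18.7 to 21.3 RPKM in SPOPwt. Again S0 stood apart from the other pairs, with 13.5 RPKM for SPOPmut against 21.3 RPKM for SPOPwt, a log2 difference of -0.63. That value stood above those of 11.2% of all genes in S0, whose quartiles were -0.35 and 0.31. In S5 SPOPmut was higher by 0.25. The mean difference was -0.033 (SE 0.11, 95% interval -0.29 to 0.23, limma adjusted p = 0.961), and it was 0.086 without S0. SPOPmut was higher in 4 of 6 pairs.

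Taken by pair, the genes moved together in some pairs and not in others. All 6 were higher in SPOPmut in S1 and in S2, where 58.9% and 65.7% of all genes tested were higher too. In S0, 5 of 6 were lower and Spop was the exception, with 49.2% of all genes higher. In S4, 5 of 6 were lower, again all but Spop, with 42.04% of all genes higher. In S3, 5 of 6 were higher, Rbx1 being lower, with 51.3% of all genes higher. In S5, 3 of 6 were higher, with 49.5% of all genes higher. Pair S0 also differed most in proliferation genes, whose summed level was 159 RPKM in the SPOPmut library, against 293 RPKM in the SPOPwt library. The part of that difference in the S0 values of Cul3, Nedd8 and Cand1 was not tested.

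**Figure D3:**
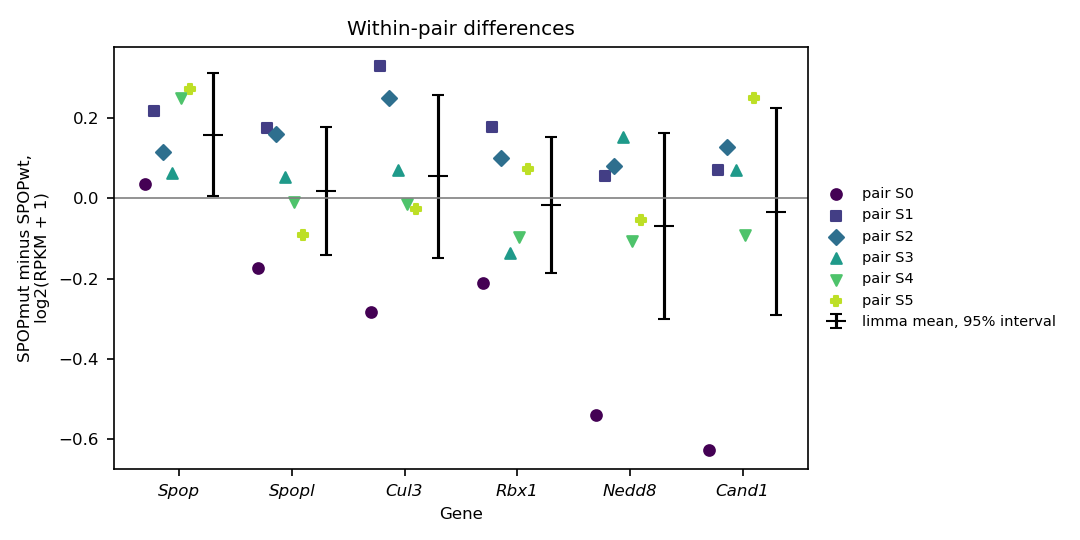
Difference of SPOPmut minus SPOPwt on the log2(RPKM + 1) scale (vertical axis) for each gene, with a symbol per pair and the limma mean with its 95% interval at the right of each group. The 6 Spop symbols lie above 0, between 0.035 and 0.27, and the S0 symbols of Nedd8 (-0.54) and Cand1 (-0.63) lie lowest.

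Pair S5 was set against pairs S0 to S4 over 6 pair means. S5 was singled out with earlier results of these data known and is a single pair, assumed in the fit to vary like the other 5. An exact permutation of 1 against 5 could not go below p = 0.167. Cul3 stood at 15.01 and 15.3 RPKM in S5, against 17.5 through a median of 27.5 to 37.1 RPKM in S0 to S4, or -0.74 on the log2 scale (SE 0.35, 95% interval -1.60 to 0.12, limma adjusted p = 0.171). Nedd8 stood at 66.4 and 69.0 RPKM in S5, against 77.3 through a median of 116 to 147 RPKM in S0 to S4, a difference of -0.71 (SE 0.27, 95% interval -1.36 to -0.053, limma adjusted p = 0.104). For both, the S5 libraries lay below every other library, and no member had both above. Of all genes tested 28.1% lay below the range of S0 to S4, 21.4% above it and 49.5% in either place. The filter, 1 RPKM or more in at least 6 of 12 libraries, can keep a gene that reaches 1 RPKM only in S0 to S4. It drops every gene that reaches 1 RPKM only in S5. These shares, and all counts of genes called in S5, are therefore tilted towards lower. None of the 6 genes passed the threshold, which 25% of all genes did. Nedd8 alone had an unadjusted limma p under 0.05, as 40.2% of all genes had. Without pair S3, whose Cul3 and Nedd8 levels were closest to those of S5, limma called both, Cul3 at -0.87 (adjusted p = 0.0342) and Nedd8 at -0.82 (adjusted p = 0.0068). That fit called 6363 genes in place of 3406, and leaving out S0, S1, S2 or S4 called 2162, 2027, 1970 or 2208.

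The other 4 genes lay closer to S0 to S4. Spop stood at 48.5 and 40.0 RPKM in S5, against 44.6 through a median of 48.3 to 57.0 RPKM in S0 to S4, a difference of -0.16 (SE 0.15, 95% interval -0.52 to 0.20, limma adjusted p = 0.446). Differences were -0.052 for Spopl (95% interval -0.39 to 0.28), -0.011 for Rbx1 (-0.43 to 0.41) and -0.077 for Cand1 (-0.74 to 0.58). The median of all genes was -0.071, and 0.080 after quantile normalization, under which Spopl, Rbx1 and Cand1 turned positive. In bulk RNA, fewer cells of a type and less RNA per cell cannot be told apart. The summed basal, pan-epithelial and mesenchymal markers of the S5 libraries lay outside the range of the rest. The summed proliferation genes did not, since the SPOPwt library of S3, at 36.0 RPKM, lay between the S5 libraries at 25.9 and 40.1 RPKM. Taken singly, Mki67 (0.631 to 1.65 RPKM in S5, against 5.70 to 55.0 RPKM in S0 to S4), Top2a, Ccnb1 and Cdk1 lay below that range. Mcm2 (7.00 to 14.6 RPKM in S5, against 6.04 to 68.9 RPKM) and Pcna lay within it. The part of these markers in the Cul3 and Nedd8 levels was not tested.

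Whether the genotype difference itself was different in S5 was tested on the 6 pair differences. For Spop it was 0.27 in S5 and 0.14 on average in S0 to S4, which differed by 0.14 (SE 0.18, 95% interval -0.30 to 0.57, limma adjusted p = 0.968). Cand1 had the widest gap, 0.25 in S5 and -0.089 in S0 to S4 (difference 0.34, SE 0.28, limma adjusted p = 0.901). None of the 6 passed, and of all genes 0.0221% did. At an unadjusted limma p under 0.05 none of the 6 passed either, and 8.67% of all genes did.

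Across the 12 libraries, Cul3, Nedd8, Cand1 and Spopl followed one another, and Spop and Rbx1 did not follow them. Pearson's r of log2(RPKM + 1) was 0.94 for Cul3 and Nedd8, 0.69 for Cul3 and Cand1, 0.77 for Cul3 and Spopl and 0.70 for Nedd8 and Cand1. Over the 10 libraries without S5 these were 0.90, 0.85, 0.87 and 0.94. For Spop and Cul3 r was 0.39, and 0.15 without S5. Rbx1 ran against Cul3 at -0.37, and -0.52 without S5. The 12 libraries are tied in 6 pairs, so these values are descriptions. The ratio of Nedd8 to Cul3 stayed between 3.52 and 5.11, whereas that of Spop to Cul3 ran from 1.41 to 3.23.

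**Figure D4:**
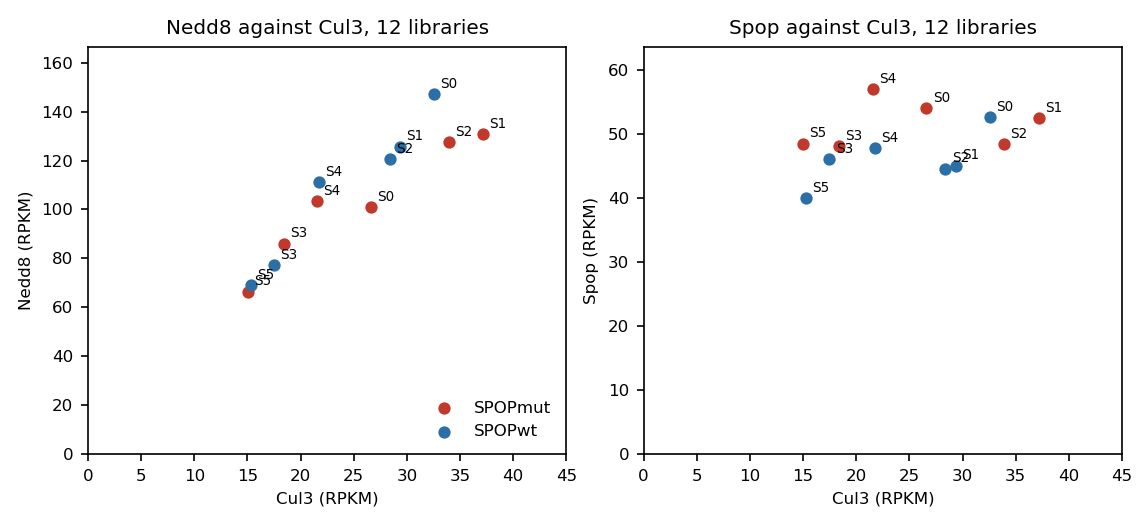
Nedd8 (left) and Spop (right) against Cul3, all in RPKM on axes from 0, with a point for each of the 12 libraries labelled by its pair. By pair mean, Nedd8 climbs with Cul3 from S5 through S3 and S4 to S0, S1 and S2. The SPOPmut library of S0, with Nedd8 at 101 RPKM, lies below both S4 libraries (103 and 111 RPKM). Spop stays between 40.0 and 57.0 RPKM throughout.

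Proliferation genes followed a like order over the pairs. Mki67, a marker of cycling cells, was at 51.4 RPKM for SPOPmut and 54.6 RPKM for SPOPwt in S1, and at 55.0 and 50.8 RPKM in S2. In S3 it was 8.52 RPKM for SPOPmut and 5.70 RPKM for SPOPwt, and in S5 0.631 and 1.65 RPKM. By the mean of a pair's 2 libraries, S1 and S2 had the highest Mki67 and Cul3, and S3 and S5 the lowest of both. The part of proliferation in these levels was not tested.

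The genes whose levels over the 12 libraries were most like those of Cul3 were Arsj, a sulfatase gene (r = 0.99), and Cops2, a COP9 signalosome subunit (r = 0.98). For Nedd8 they were the proteasome subunit gene Psmb2 and Hn1 (r = 0.99 each), and for Cand1 Samd11 and the kinase gene Gsk3a (r = 0.98 each). An r above 0.9 was common for these members, with 5.74% of all genes for Cul3, 8.38% for Nedd8 and 3.24% for Cand1. For Spopl the closest were Atp5c1, a subunit of the ATP synthase (r = 0.94), and Ube2d3, a ubiquitin-conjugating enzyme (r = 0.93). For Rbx1 they were Dhdds (r = 0.92) and Cd164 (r = 0.91). Spop had 0 genes above 0.9, and its closest were the focal adhesion gene Tns3 (r = 0.83) and the signalling adaptor gene Dok1 (r = 0.80).

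In the wider pathway, 0 members of 5 lists were called between SPOPmut and SPOPwt, against 0% of all genes. Of 10 neddylation enzymes 9 passed the filter on level, and 3 of these had a higher mean in SPOPmut, with a median difference of -0.061, beside 0.00055 over all genes. The smallest p-values were those of Dcun1d4 (-0.076, SE 0.063) and of Ube2m, the NEDD8-conjugating enzyme (-0.12, SE 0.10). Of 10 subunits of the COP9 signalosome 3 were higher, with a median of -0.050, led by Myeov2 (0.069, SE 0.060) and Gps1 (-0.13, SE 0.12). Of 10 other cullins, RING partners and exchange factors 9 were tested and 4 were higher, with a median of -0.0041, led by Rnf7 and by Cand2, a relative of Cand1 (-0.078, SE 0.059). Of 14 ubiquitin genes and ubiquitin-transferring enzymes 8 were higher, with a median of 0.016, led by the ubiquitin-conjugating enzyme gene Cdc34 (-0.18, SE 0.093) and the polyubiquitin gene Ubb (0.094, SE 0.071). The limma adjusted p of each of these genes was 0.887.

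Of 44 other BTB adaptors 36 were tested, and 22 of these had a higher mean in SPOPmut, with a median difference of 0.021, and 2 had an unadjusted limma p under 0.05, a share like the 5.6% of all genes. These 2 are given as values of the smallest p in the list. Kctd13, an adaptor that directs CUL3 to the GTPase RhoA, ran from 1.28 through a median of 1.47 to 4.32 RPKM in SPOPmut, against 1.77 through a median of 2.00 to 5.52 RPKM in SPOPwt. It was lower in 6 of 6 pairs, as were 1.68% of all genes, at -0.28 on the log2 scale (SE 0.068, limma adjusted p = 0.769). Klhl9, an adaptor with roles in mitosis, ran from 11.98 through a median of 14.7 to 15.8 RPKM in SPOPmut, against 10.2 through a median of 12.2 to 14.2 RPKM in SPOPwt. It was higher in 6 of 6 pairs, as were 3.62% of all genes, by 0.18 (SE 0.066, limma adjusted p = 0.881). For both genes the groups overlapped in level, and neither gene passed the threshold.

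For pair S5 the counts of the lists are to be read against all genes, of which 10.9% were called higher and 14.1% lower, or 1485 and 1921 (1924 and 1356 after quantile normalization). Of the neddylation enzymes 2 of 9 were called higher and 0 lower, with a median difference of 0.35 beside -0.071 over all genes. Dcun1d4, one of the proteins that promote neddylation of cullins, stood at 8.79 to 8.96 RPKM in S5, against 1.99 to 3.08 RPKM in S0 to S4 (1.47, SE 0.18, limma adjusted p = 0.0044). The related Dcun1d3 was higher by 0.60 (SE 0.16, limma adjusted p = 0.0385). Of the COP9 signalosome 2 of 10 were called lower and 0 higher, with a median of -0.38. They were Cops5, its catalytic subunit, at 9.06 to 9.61 RPKM in S5 against 17.0 to 22.1 RPKM in S0 to S4 (-0.94, SE 0.14, limma adjusted p = 0.0073), and Cops8 (-0.79, SE 0.15, limma adjusted p = 0.0163).

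Of the other cullins and partners 2 of 9 were called lower and 0 higher, with a median of 0.13. Cul7 stood at 1.94 to 2.08 RPKM in S5, against 9.42 to 19.1 RPKM in S0 to S4 (-2.21, SE 0.36), and Cand2 at 0.651 to 0.778 against 3.43 to 5.97 RPKM (-1.74, SE 0.24). Cand2 passed the filter on level only through S0 to S4, where it was high, so its call is no support for a difference. Of the 14 ubiquitin genes and enzymes 3 were called higher and 1 lower, with a median of 0.23. The higher ones were Cdc34, at 53.5 to 54.4 RPKM in S5 against 13.2 to 23.9 RPKM in S0 to S4 (1.51, SE 0.30), the activating enzyme gene Uba6 (0.82, SE 0.15) and the ligase gene Arih1 (0.65, SE 0.13), and the lower one was Ube2r2 (-0.51, SE 0.13), at limma adjusted p-values of 0.0149 to 0.0342. Of the BTB adaptors 7 of 36 were called higher and 4 lower, with a median of 0.027. The lower ones include Klhl23, at 0.132 to 0.203 RPKM in S5 against 1.19 to 2.65 RPKM in S0 to S4. Klhl23 passed the filter on level only through S0 to S4, so its call is no support for a difference. The largest differences were those of Kctd17, at 7.66 to 9.09 RPKM in S5 against 25.9 to 42.1 RPKM in S0 to S4 (-1.87, SE 0.24, limma adjusted p = 0.0048), Rhobtb3 (-1.35, SE 0.15, limma adjusted p = 0.0035) and Klhl26 (1.25, SE 0.19, limma adjusted p = 0.0077).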

How the data were processed

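The deposited values are RPKM, made by the authors, in 1 file per library without a header. The submitters' processing notes name STAR 2.4.0j, mm10 and GRCm38. Neither the counting program nor the annotation nor the handling of multi-mapping reads is given. Libraries were made with a kit that does not mark strand. Depths come from the step between low values of 20373 single-transcript genes with GENCODE M21 lengths. Of such values 41.6 to 44.2% lay within 0.04 of a multiple of 0.5 reads (8% by chance), so whole reads were not recovered. Neither count tests nor counting intervals are used for any gene. Each of the 6 genes had about 1400 to 7000 reads per library. Coordinates are GENCODE M21, and promoter windows are RefSeq.

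Values were transformed to log2(RPKM + 1), which understates differences of low genes. Genes at 1 RPKM or more in at least 6 of 12 libraries were fitted in limma 3.58.1 (R 4.3.3) with pair and genotype, a trended, robust prior and two-sided p-values adjusted by Benjamini-Hochberg over all genes, called under 0.05. S5 was compared on pair means. The fits were tested on simulated data. Python 3.11.15 and matplotlib 3.10.9 drew the figures. The labels' protocols speak of pairs: deviations of same-numbered libraries correlated across genes by 0.753 to 0.954 in S1 to S5 but by 0.0602 in S0. On rough counts rebuilt from RPKM, the lowest median chi-square between libraries of a group was 1.21 (S1 and S2 in SPOPwt), against 0.455 from sampling. The same pairs gave 2.07 in SPOPmut, and the next lowest was 7.93 (S0 and S4 in SPOPmut). Since whole reads were not recovered, these values are a rough guide and do not show separate animals or cultures. No libraries were merged. Members, gene lists and rules were chosen with earlier results of these data known. Named genes were the 6 members, the 2 of smallest p of each list or those called, up to 3 called genes per list in S5, the 3 most abundant adaptors and the 2 genes most like each member by Pearson's r, leaving out members and unnamed gene models. Keap1, Cul1, Ube2r2 and Klhl23 were added after their values were seen. Alternatives were other pseudocounts, filters, scalings, priors and weights, no pair block, and leaving out pairs.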

Additional observations from a re-analysis of the deposited data

Results flagged for a closer look

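For each of the 6 genes, the highest and lowest of the 6 SPOPmut levels, of the 6 SPOPwt levels and of the 6 pair differences were checked for a gap to the next value, as a share of the range, above Dixon's critical value at 95%. Of 36 such checks 1 passed it: the Nedd8 difference of pair S0, at -0.54 on the log2(RPKM + 1) scale, the lowest of the 6. Chance alone picks out about 5% of such groups. The Cand1 difference of the same pair came next, with a gap of 0.611 of the range. Differences in S0 were wide over all genes, with quartiles of -0.35 and 0.31, and deviations of its libraries correlated by only 0.0602. Among all genes in S0, the Nedd8 and Cand1 differences stood above 14.7% and 11.2%, so neither is particular to its gene.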

How the results depend on the processing

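Of 233 results recomputed, 196 were labelled the same. For the difference of a gene, this meant the same direction and the same side of the threshold. For a count of genes called, it meant a total within a fixed ratio of the main one, whatever its split into higher and lower. Spop stayed higher in SPOPmut in all 17 alternatives run for it (0.14 to 0.19) and was not called in any (adjusted p = 0.19 to 1.00). Without the replicate block its difference was 0.16 (limma adjusted p = 1.00), no gene was called, and no call changed. Counts of genes called between SPOPmut and SPOPwt were 0 in each alternative except array weights, with 9 (7 higher, 2 lower).

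Directions of small differences turned, and the cause was not tested. Between SPOPmut and SPOPwt, Rbx1, Nedd8 and Cand1 were at 0.037, 0.048 and 0.077 with array weights and at 0.011, 0.046 and 0.045 without pairs S0 and S5, and Rbx1 was at 0.0023 with quantile normalization. Leaving out each pair in turn gave -0.054 to 0.024 for Rbx1, -0.11 to 0.026 for Nedd8, -0.089 to 0.086 for Cand1, -0.012 to 0.058 for Spopl and -0.00036 to 0.12 for Cul3.

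For S5 against S0 to S4, Spopl, Rbx1 and Cand1 were at 0.050, 0.12 and 0.036 with quantile normalization and at 0.018, 0.070 and 0.0023 with median-of-ratios scaling. Spop ranged from -0.23 to -0.0035 over 16 alternatives. Rbx1 was at 0.0046 with TPM scaling, which also changed the genes tested. Rbx1 and Cand1 were at 0.042 and 0.093 in SPOPmut libraries alone, and Spopl at 0.014 in SPOPwt libraries alone. Leaving out each of the pairs S0 to S4 gave -0.87 to -0.66 for Cul3, -0.82 to -0.66 for Nedd8, -0.042 to 0.036 for Rbx1 and 1970 to 6363 genes called. Without a filter 8435 genes were called, of 30285 tested. The split of 1485 higher and 1921 lower became 1924 and 1356 with quantile normalization and 6208 and 2227 without a filter. Of the genotype differences in S5 against the rest, 3 genes were called, and 1 with 1 RPKM required in all 12 libraries. Depth limits the least abundant gene, Spopl, most.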

Other observations

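Outside the 6 genes, 3 of 13600 genes had a genotype difference in S5 that differed from that in S0 to S4 in limma, named here after their values were seen. They were Prl2c2 and Prl2c3, near-identical prolactin family genes that can share reads (3.79 and 3.85 in S5 and -0.80 and -0.84 on average in S0 to S4, adjusted p = 0.0114 each), and Cyr61, a matricellular protein (1.40 and -0.29, adjusted p = 0.0197). S5 is a single pair in this test.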
